A study of Mus musculus with 2 samples.

Results

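The surface markers followed here are 10 genes whose proteins are used to tell apart or sort intestinal stromal cells, namely Cd81, Cd34, Thy1, Cd9, Thbd, F3, Bst1, Itgb1, Pi16 and Ly6a. They were chosen by name and are 10 of the 28692 features in the count tables. The cells used were those with at least 500 genes and at most 10% mitochondrial unique molecular identifiers (UMIs). That left 9873 of 11568 barcodes in the large intestinal (LI) library and 7910 of 9631 in the small intestinal (SI) library.

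Embryonic small or large intestine of strain EYFP (C57BL/6) had been placed beneath the kidney capsule of adult WT mice and recovered after 4 weeks. Mesenchymal stromal cells (MSC) were sorted from grafts, pooled for the colonic sample, as live cells that stained for Itgb1 and carried YFP, and that lacked CD45, Ter119, BP3, CD31, EpCAM and L1CAM. Itgb1 protein was thus a positive gate, and BP3, the product of Bst1, a negative one. There was 1 library per region, and the labels name a 3′ and a 5′ kit without saying which library had which. Region, kit and library therefore cannot be told apart, no test between the libraries was made, and the 95% intervals given cover counting error only. The files hold no feature for EYFP, so graft origin could not be checked from the counts.

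Fibroblasts (FB) of the gut wall, smooth muscle cells (SMC) and pericytes share many surface proteins, and subsets are usually separated by combinations of them. CD34 is a sialomucin carried by many fibroblasts outside the epithelial border, while fibroblasts close to the epithelium are typically high in PDGFRA. PI16 is known from fibroblasts of the adventitia in many organs, and CD81-positive fibroblasts are known in the gut for factors that support the epithelial stem cell niche.

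The median cell held 5288 UMIs in LI and 5682 in SI, and the libraries had 26 barcodes in common. Clusters were built in each library without the 10 surface genes and matched between libraries by their leading genes, which gave 9 classes for comparison with 77.4% of LI and 80.0% of SI cells. Of these, 6 were of the fibroblast lineage, and all fibroblast-lineage clusters together held 77.0% of LI and 72.8% of SI cells. Cells with a Y-linked UMI and no Xist were 9.0% of LI and 24.3% of SI cells, so each library held cells of both sexes and thus of more than 1 embryo. Of the genes of the negative gates, Ptprc (CD45) stood at 2.21 CPM (pooled UMIs of a gene scaled to a common total) in LI and 1.70 in SI, Pecam1 (CD31) at 1.69 and 1.59, and Epcam at 2.33 and 33.4.

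Over all cells, Pi16 was higher in LI and Cd34 higher in SI, by less than 2-fold each. Of the 9 surface genes with at least 10 CPM in a library, all but Bst1, 0 differed by 2-fold or more, beside 3.92% of the 8827 genes at that level (1.64% higher in LI and 2.28% higher in SI). The median of the 9 log2 ratios (LI over SI) was 0.22, beside -0.01 over all genes tested. Pi16 came closest, with 220 CPM (216 to 223) in LI and 115 CPM (112 to 118) in SI, a log2 ratio of 0.92 (0.89 to 0.97). Cd34 went the other way, with 212 CPM (208 to 215) in LI and 312 CPM (308 to 317) in SI, a log2 ratio of -0.56 (-0.60 to -0.53). Thbd could not be separated between the libraries, since its log2 ratio of 0.04 had an interval from -0.02 to 0.09.

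The others of these 9 differed by less than Cd34. Ly6a had 799 CPM in LI and 664 CPM in SI, and Itgb1 had 572 and 661 CPM. Cd81 had 424 and 364 CPM and Cd9 had 357 and 332 CPM. F3 had 92.4 and 75.2 CPM, Thbd 91.2 and 88.9 CPM, and Thy1 47.1 and 37.7 CPM. These levels are not corrected for transcript length and do not rank the genes.

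**Figure D1:**
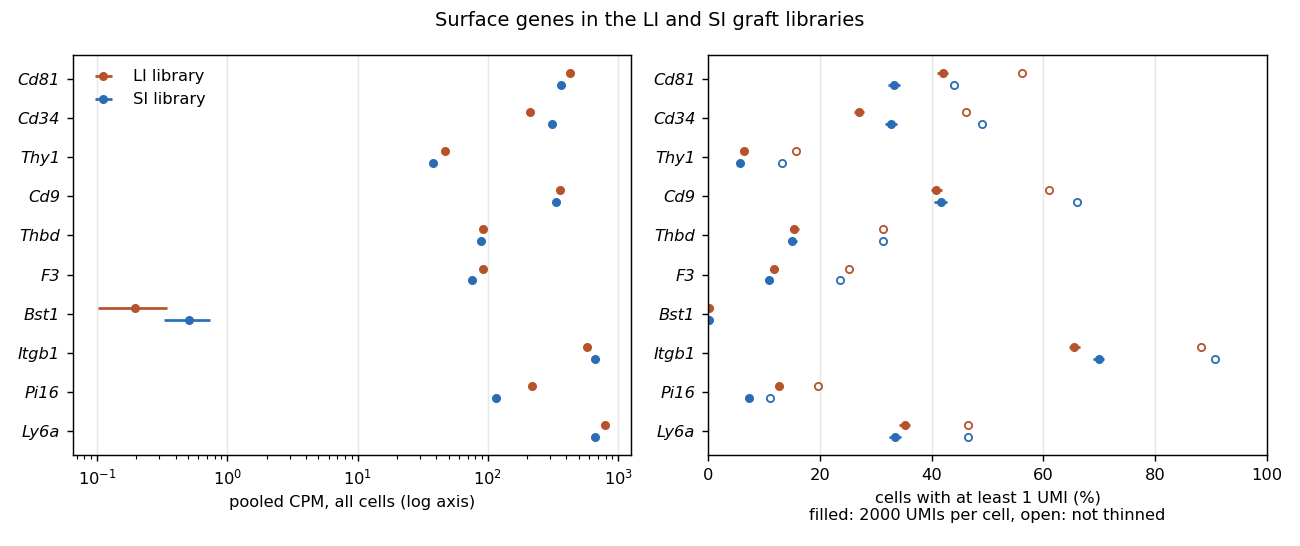
Level of each surface gene in the LI and SI libraries (1 library each, 95% counting intervals): pooled CPM and the percent of cells with a UMI. Itgb1 was seen in 65.5% of thinned LI and 69.9% of thinned SI cells, Bst1 lies far below the rest, and of the other 9 genes Pi16 has the largest ratio between libraries, with 220 and 115 CPM.

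Because the share of cells with a UMI rises with depth, each cell was thinned to 2000 UMIs, which kept 9146 LI and 7373 SI cells. Itgb1, the integrin beta chain of the positive gate, was then seen in 65.5% of LI and 69.9% of SI cells, and without thinning in 88.1% and 90.7%. All cells had been sorted for the protein, so a cell without a UMI cannot be read as negative for a surface protein. Cd81 was seen in 42.0% of thinned LI cells (41.0 to 43.0) and 33.3% of SI cells (32.2 to 34.4), and without thinning in 56.3% and 44.0%. Cd34 was seen in 27.0% and 32.7% of thinned cells and in 46.2% and 49.0% without thinning. Cd81 was therefore seen in more cells in LI and Cd34 in more cells in SI at either depth.

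Cd9 was seen in 40.8% of thinned LI and 41.6% of thinned SI cells, and Ly6a in 35.2% and 33.5%. Thbd was seen in 15.5% and 15.1%, F3 in 11.8% and 10.9%, and Thy1 in 6.43% and 5.71%. Pi16 was seen in 12.7% of LI cells (11.98 to 13.35) and 7.24% of SI cells (6.66 to 7.86). Ly6a and Pi16 gave many UMIs where they were seen, with 10.6 and 6.87 UMIs per positive LI cell without thinning, while Thy1 and Thbd had 1.86 and 1.80.

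Free RNA can place UMIs in cells that do not express a gene, so shares were set beside those of mural cells. In pericyte-like cells, with a median of 4184 UMIs in LI and 4544.5 in SI, Cd34 was seen in 1.94% and 2.49% of thinned cells and Pi16 in 2.47% and 1.10%. In SMC-like cells, with medians of 4718 and 5096.5 UMIs, Cd34 was seen in 8.56% and 2.60%, Pi16 in 0.694% and 0.709%, and Thbd in 7.64% and 6.15%. F3 was seen in 21.3% and 25.1% of SMC-like cells, more than in all cells, so these cells could not serve as its background. For Cd81, Cd9, Itgb1, Thy1 and Ly6a no class was known to lack the gene.

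Bst1 (chr5:43818885-43843986, plus strand, GRCm38), which encodes the ectoenzyme BP3 of the negative gate, gave only 12 UMIs in 11 LI cells and 26 UMIs in 13 SI cells. The 13 SI cells had all 6 epithelial markers, at a summed 12128 CPM beside 132 CPM in all SI cells, while Ptprc, Cd3e and Cd79a were at 0. Of the 11 LI cells, 8 were of the fibroblast lineage, with 9 of the 12 UMIs, and 1 was in the immune cluster. The part of epithelial cells in the SI Bst1 UMIs was not tested. Bst1 was too rare for a fold between libraries, for pairs and for splitting cells. It is left out from here on, except in a count of ratios over classes.

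Across classes, 5 of the 9 other surface genes had their highest level in 1 class shared by the libraries, beside 38.6% of 9877 genes. These were Cd81 and Pi16 in Myoc/Itm2a cells, Thbd and F3 in PDGFRAhi FB-like cells, and Ly6a in Cxcl9/H2-Ab1 cells. Clusters without a match in the other library are outside this order. As given below, an unmatched LI cluster held more Pi16 and an unmatched SI cluster more Cd34 than the leading class of its library. Classes that met no marker rule are called here by a pair of their leading genes.

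**Figure D2:**
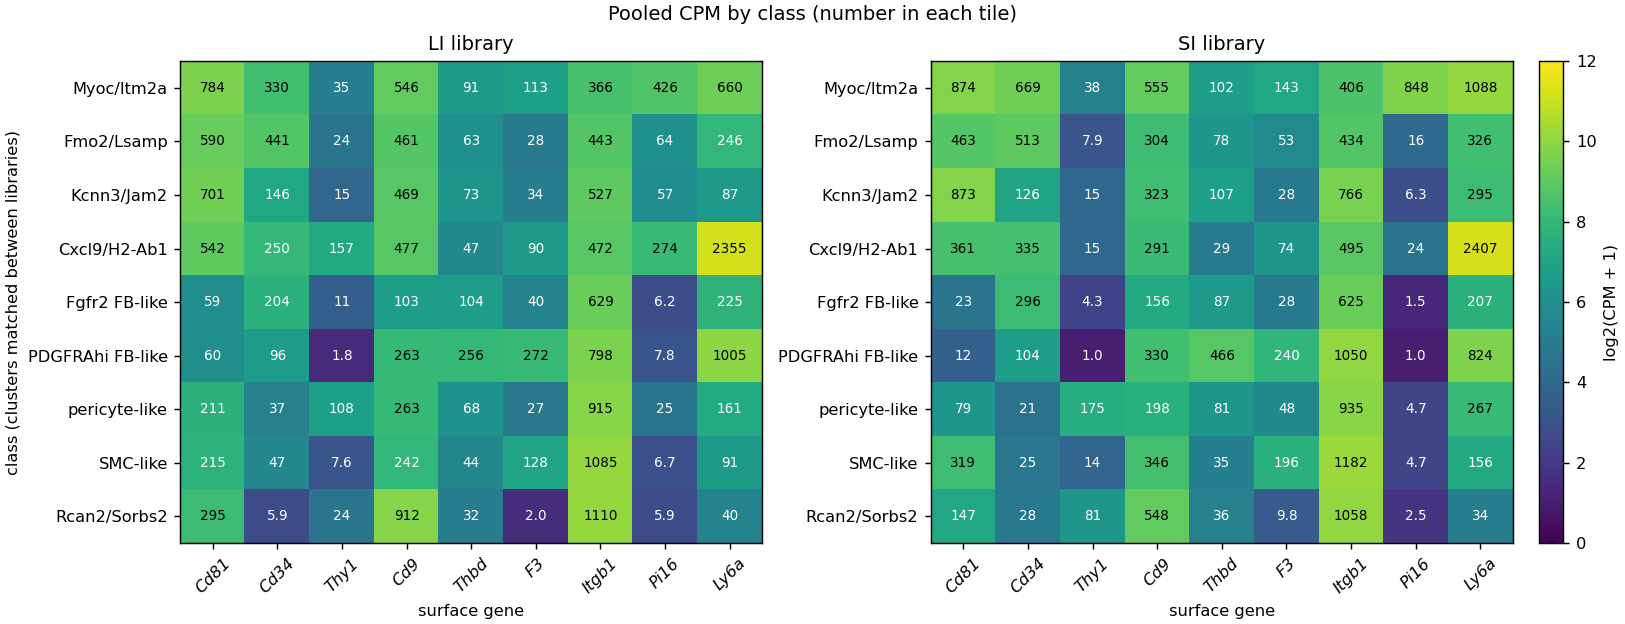
Pooled CPM (number in each tile, colour on a log2 scale of CPM + 1) of 9 surface genes in the 9 classes compared, for the LI library on the left and the SI library on the right. Cd81 and Pi16 are highest in Myoc/Itm2a cells, Thbd and F3 in PDGFRAhi FB-like cells and Ly6a in Cxcl9/H2-Ab1 cells of both libraries, while Thy1 is 157 CPM in LI and 15.3 CPM in SI Cxcl9/H2-Ab1 cells.

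Cd81 (chr7:143052739-143067934, plus strand), a tetraspanin that organises membrane protein complexes, set the fibroblast classes far apart. Of the 9 classes compared it was highest in Myoc/Itm2a cells, with 784 CPM in LI and 874 CPM in SI, and next in Kcnn3/Jam2 cells, with 701 and 873 CPM. The intervals of these classes overlapped in SI and not in LI. It was lowest in Fgfr2 FB-like cells, with 58.6 and 23.5 CPM, and PDGFRAhi FB-like cells, with 59.8 and 11.9 CPM. Among thinned cells, 75.2% of LI and 78.2% of SI Myoc/Itm2a cells had a Cd81 UMI, against 8.24% and 3.41% of Fgfr2 FB-like cells. The 1 cluster that its markers named CD81 FB-like held 630 LI cells, was led by Areg, Ereg and Ttyh1 and had no SI match. Cd81 stood there at 361 CPM (344 to 378), below the 424 CPM of all LI cells, and was seen in 44.5% of thinned cells.

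Within classes, Cd81 was 2-fold or more higher in LI in 4 of 9. In PDGFRAhi FB-like cells the log2 ratio was 2.24 (1.72 to 3.001), where 4.66% of genes were as much higher in LI. It was 1.41 in pericyte-like cells (2.42% of genes), 1.29 in Fgfr2 FB-like cells (2.37%) and 1.004 in Rcan2/Sorbs2 cells (3.69%), a class with only 83 LI cells. In the classes where Cd81 was highest the libraries differed by less than 2-fold.

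Cd9 (chr6:125460266-125494791, minus strand), another tetraspanin, was spread more evenly. It was highest in LI in Rcan2/Sorbs2 cells, with 912 CPM, and in SI in Myoc/Itm2a cells, with 555 CPM, where the interval overlapped that of Rcan2/Sorbs2 cells with 548 CPM. It was lowest in Fgfr2 FB-like cells, with 103 CPM in LI and 156 CPM in SI. Its range from highest to lowest class was 8.87-fold in LI and 3.56-fold in SI, against 13.4-fold and 73.5-fold for Cd81.

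Cd34 (chr1:194938819-194961279, plus strand) was higher in the fibroblast classes than in pericyte-like and SMC-like cells of both libraries. Of the classes compared, it was highest in LI in Fmo2/Lsamp cells, with 441 CPM, followed by Myoc/Itm2a cells with 330 CPM. In SI the order of these classes was turned, with 669 CPM in Myoc/Itm2a and 513 CPM in Fmo2/Lsamp cells. It was 204 and 296 CPM in Fgfr2 FB-like, 95.7 and 104 CPM in PDGFRAhi FB-like, 36.7 and 21.3 CPM in pericyte-like and 46.8 and 24.8 CPM in SMC-like cells of LI and SI. Cd34 was 2-fold or more higher in SI in Myoc/Itm2a cells, with a log2 ratio of -1.02 (-1.09 to -0.95), where 2.48% of genes were as much higher in SI. The same held in Rcan2/Sorbs2 cells (-2.06, 10.3% of genes), on 3 UMIs in LI.

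Pi16 (chr17:29317680-29330593, plus strand), which encodes a peptidase inhibitor held at the cell surface, was low outside a few fibroblast classes. It stood at 426 CPM in LI and 848 CPM in SI Myoc/Itm2a cells and at 7.79 and 0.991 CPM in PDGFRAhi FB-like cells. Although Pi16 was higher in LI over all cells, in Myoc/Itm2a cells it was higher in SI, by just under 2-fold, with a log2 ratio of -0.99 (-1.06 to -0.93). It was 2-fold or more higher in LI in Cxcl9/H2-Ab1 cells (log2 3.47, 7.18% of genes), Kcnn3/Jam2 cells (2.98, 4.15%) and Fmo2/Lsamp cells (1.93, 1.59%). Pi16 in SI Kcnn3/Jam2 cells stood at 6.31 CPM on 21 UMIs, beside 4.72 CPM in SI pericyte-like cells. The ratio in Kcnn3/Jam2 cells thus rests on an SI level near background. The ratio in pericyte-like cells was 2.17, on 74 UMIs in LI and 23 in SI, but these cells served as background for Pi16 and the ratio is not read as a difference in expression. The Myoc/Itm2a clusters of the libraries shared 7 of 30 leading genes, and the fixed list with the highest score was that of CD81 FB in LI and of adventitial FB in SI. The part of this in the Pi16 and Cd34 ratios of the class was not tested. LI also held a cluster of 433 cells with no SI match, led by Cthrc1 and Prg4, which scored highest for adventitial FB and in which Pi16 stood at 1144 CPM. SI held an unmatched adventitial FB-like cluster of 338 cells, led by Stmn4 and Pcolce2, with Pi16 at 170 CPM and Cd34 at 1048 CPM.

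Thy1 (chr9:44043384-44048579, plus strand), which encodes the lipid-anchored glycoprotein CD90, had a different leading class in each library. In SI it was highest in pericyte-like cells, with 175 CPM, followed by Rcan2/Sorbs2 cells with 81.0 CPM. In LI it was highest in Cxcl9/H2-Ab1 cells, with 157 CPM, followed by pericyte-like cells with 108 CPM. In SI Cxcl9/H2-Ab1 cells it stood at 15.3 CPM, a log2 ratio of 3.27 (3.01 to 3.71) on 1125 UMIs in LI and 74 in SI. Thy1 was also 2-fold or more higher in LI in Fmo2/Lsamp cells (1.46) and Fgfr2 FB-like cells (1.22), and lower in Rcan2/Sorbs2 cells (-1.73). The ratio in Fgfr2 FB-like cells rested on 31 UMIs in SI, with an interval from 0.82 to 2.02. That in Rcan2/Sorbs2 cells rested on 12 UMIs in LI, with an interval from -2.74 to -0.93. Both intervals reach below 2-fold. Of all fibroblast-lineage cells together, 1 of the 9 surface genes differed by 2-fold or more, beside 3.5% of genes (1.86% higher in LI and 1.65% higher in SI), and that was Thy1, with 47.8 CPM in LI and 20.2 CPM in SI. The female cells of that lineage did not reach 2-fold, with 28.0 CPM in 6154 LI and 23.1 CPM in 3320 SI cells, while the male cells stood at 122 CPM in 713 LI and 18.2 CPM in 1390 SI cells. Over all cells the log2 ratio of Thy1 was 0.31 (0.24 to 0.40), and in female cells alone it turned to -0.28.

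The difference of Thy1 in Cxcl9/H2-Ab1 cells moved with other properties of that class. It held 632 LI cells with a median of 11275.5 UMIs and 527 SI cells with a median of 8744 UMIs, and 360 LI and 319 SI cells of it were male. Thy1 stood at 162 CPM in male LI and 17.1 CPM in male SI cells, and at 121 and 10.8 CPM in the 44 and 50 female cells, so it was higher in LI in both sexes. The 8 mesothelial markers summed to 111 CPM in LI, with 6 of 8 seen and Lrrn4 and Gpm6a at 0, and to 2.69 CPM in SI, with 3 of 8 seen and Msln, Upk3b, Lrrn4, Gpm6a and Upk1b at 0. Immune markers summed to 45.4 and 63.8 CPM, and Ptprc and Cd3e were at 0 in the 154 Thy1-positive LI cells of the class. The part of the mesothelial markers and of depth in the result was not tested.

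**Figure D3:**
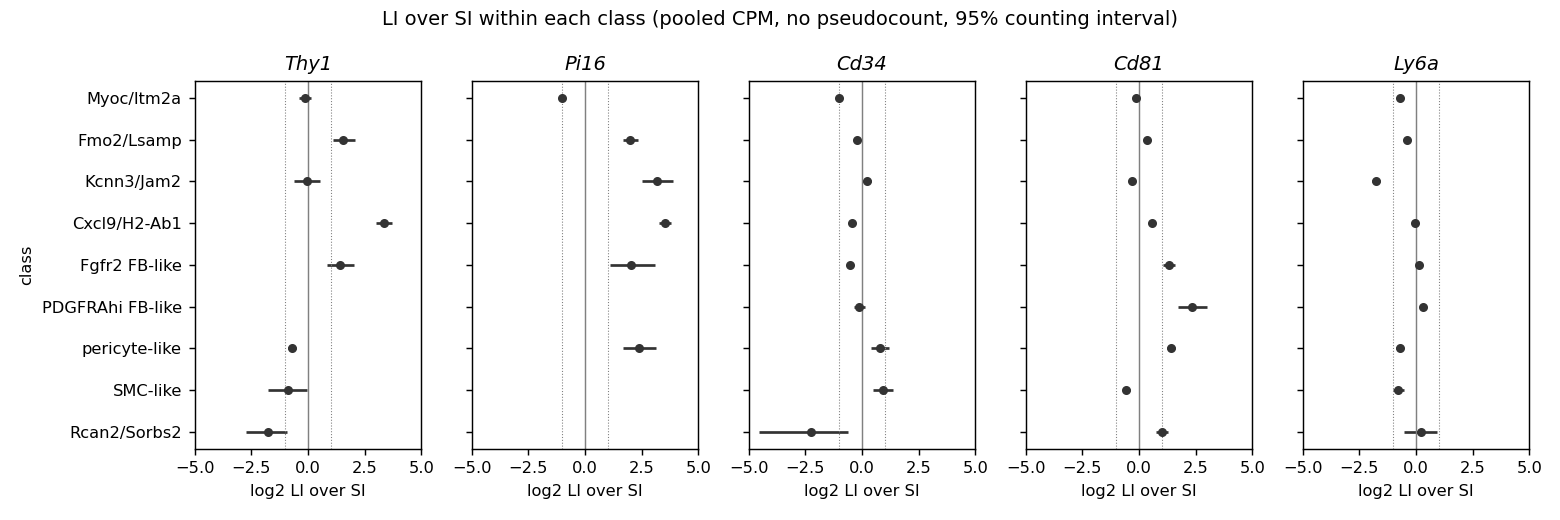
Log2 ratio of pooled CPM, LI over SI, within each class for 5 surface genes, computed with no pseudocount, with 95% counting intervals and dotted lines at 2-fold; only points with at least 50 UMIs over both libraries are drawn. Thy1 and Pi16 lie furthest to the right in Cxcl9/H2-Ab1 cells, while in Myoc/Itm2a cells Pi16 and Cd34 lie to the left.

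Ly6a (chr15:74994877-74998031, minus strand) encodes the lipid-anchored protein SCA-1, which interferon is known to raise. It belongs to a family of similar genes, so reads shared with its relatives make its level uncertain. It was highest in Cxcl9/H2-Ab1 cells, with 2355 CPM in LI and 2407 CPM in SI, and lowest in Rcan2/Sorbs2 cells, with 39.7 and 33.8 CPM. In LI, PDGFRAhi FB-like cells followed with 1005 CPM, and in SI, Myoc/Itm2a cells with 1088 CPM. It was 2-fold or more higher in SI in Kcnn3/Jam2 cells (log2 -1.75, 3.82% of genes), where male SI cells had 766 CPM and female SI cells 102 CPM, near the 86.8 CPM of female LI cells. Only 1 cell of this LI class was male. Over fibroblast-lineage cells Ly6a stood at 2119 CPM in male and 570 CPM in female LI cells, and at 1328 and 430 CPM in SI. Cxcl9, an interferon-induced chemokine, moved with it, with 1105 and 109 CPM in LI and 1499 and 186 CPM in SI. Sex and embryo cannot be told apart in these libraries.

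Both surface regulators of coagulation were highest in PDGFRAhi FB-like cells. Thbd (chr2:148404466-148408188, minus strand), which encodes thrombomodulin, stood there at 256 CPM in LI and 466 CPM in SI. The next classes were Fgfr2 FB-like cells in LI, with 104 CPM, and Kcnn3/Jam2 cells in SI. F3 (chr3:121723537-121735048, plus strand), which encodes tissue factor, stood in PDGFRAhi FB-like cells at 272 and 240 CPM, and next in SMC-like cells at 128 and 196 CPM. Neither differed by 2-fold between libraries in any class where it was high enough to compare, 9 classes for Thbd and 8 for F3. Over the 9 classes, 75 of the 90 ratios of surface genes were high enough to compare, and 9 of those too low were of Bst1. Of the 75, 15 reached 2-fold, 11 towards LI, with that of Pi16 in pericyte-like cells among them, and 4 towards SI. Over the same classes 3.52% of the 78500 ratios of all genes reached 2-fold towards LI and 4.71% towards SI. Of all genes, 2.48% were as much higher in LI in Myoc/Itm2a cells and 10.3% as much higher in SI in Cxcl9/H2-Ab1 cells. Likewise, 2.11% were as much higher in SI in Fmo2/Lsamp, 5.34% in PDGFRAhi FB-like, 2.47% in pericyte-like and 2.32% in Fgfr2 FB-like cells, and in SMC-like cells, where 0 surface genes reached 2-fold, 3.02% were higher in LI and 3.34% in SI.

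Itgb1 (chr8:128685654-128733200, plus strand) varied least over the classes, by 3.04-fold in LI and 2.91-fold in SI. It was highest in SMC-like and Rcan2/Sorbs2 cells, with 1110 CPM in LI Rcan2/Sorbs2 and 1182 CPM in SI SMC-like cells, and lowest in Myoc/Itm2a cells, with 366 and 406 CPM. The highest class in LI overlapped in its interval with the next, SMC-like cells with 1085 CPM. Since all cells passed an Itgb1 gate, cells without the protein are outside this order.

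Co-detection was then compared with the share of cells expected if the genes of a pair fell in cells independently. Of 36 pairs with at least 10 such cells expected in each library, 4 were at 1.5 times the expected share or more in both libraries, beside 0.0516% of pairs of genes seen in at least 5% of thinned cells. All 4 held Pi16. The ratio cannot exceed 1 divided by the share of either gene. Pairs with Itgb1, seen in 69.9% of thinned SI cells, thus could not reach 1.5 there. By odds ratio, which has no such cap, Pi16 with Cd81 stood at 3.77 in LI and 6.87 in SI. Pi16 with F3 stood at 1.81 and 1.78, beside 2.83 and 1.64 for Cd81 with Cd9, a pair not among the 4. A total of 0 pairs were at 0.67 times or less in both libraries, beside 0.0811% of pairs of genes seen in at least 5% of thinned cells.

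**Figure D4:**
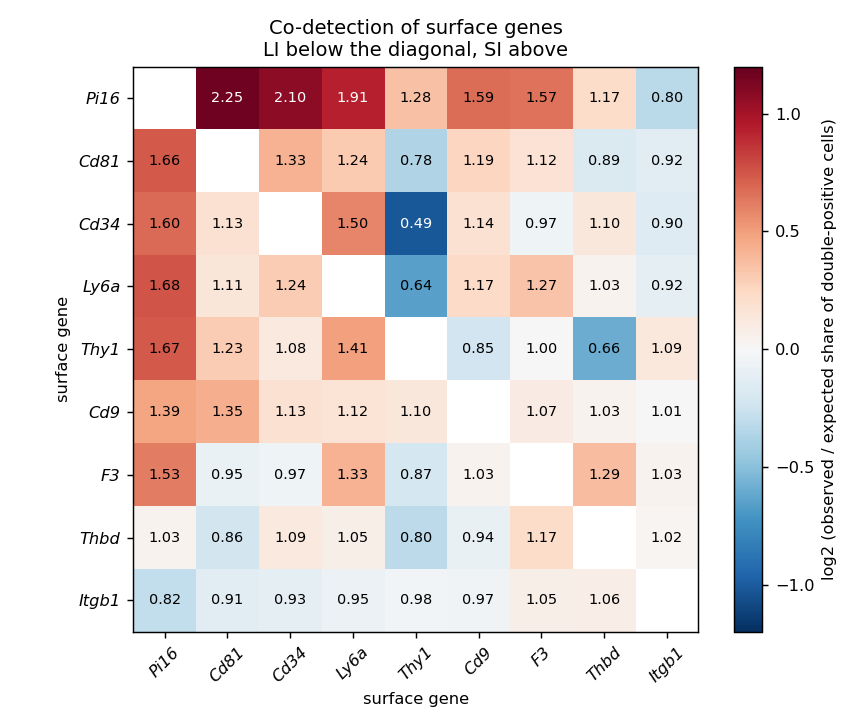
Observed over expected share of cells positive for both genes of a pair, in cells thinned to 2000 UMIs (number in each tile, colour on a log2 scale), with LI below and SI above the diagonal. Pi16 with Cd81, Cd34, Ly6a and F3 is at 1.53 to 2.25 in both libraries, and Thy1 with Ly6a is at 1.41 in LI and 0.638 in SI.

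Pi16-positive cells were for the most part Cd81-positive as well. A Cd81 UMI was seen in 69.7% of Pi16-positive and 38.0% of Pi16-negative LI cells, and in 74.7% and 30.03% in SI, a ratio to expectation of 1.66 (1.55 to 1.77) and 2.25 (2.04 to 2.47). The reverse did not hold, since 21.0% of Cd81-positive LI and 16.3% of Cd81-positive SI cells had a Pi16 UMI. For Pi16 with Cd34 the ratios were 1.6 and 2.10, with Ly6a 1.68 and 1.91, and with F3 1.53 and 1.57. The pair of Pi16 with Cd9 reached 1.39 and 1.59, below the limit in LI.

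The ratios of these pairs were smaller inside the class that held the largest share of Pi16-positive cells. Myoc/Itm2a cells were 14.6% of thinned LI and 9.83% of thinned SI cells but 47.7% and 71.2% of the Pi16-positive ones. Within Myoc/Itm2a cells the ratio for Pi16 with Cd81 was 1.01 in both libraries, and with F3 1.13 and 0.99. Cd81 was seen in most Myoc/Itm2a cells, which caps its ratio with Pi16 there below the ratios over all cells. With Ly6a it was 1.31 (1.18 to 1.45) and 1.12, and with Cd34 1.21 (1.09 to 1.35) and 1.14 (1.04 to 1.26). Among fibroblast-lineage cells alone 2 pairs were at 1.5 or more in both libraries, Pi16 with Cd81 (1.63 and 1.95) and Pi16 with Thy1 (1.81 and 2.37). That stands beside 0.0214% of pairs of genes seen in at least 5% of thinned cells of the lineage in both libraries, a level Thy1 itself did not reach in SI, with 3.01%. Pi16 with Ly6a lay just under the limit in LI and at 1.6 in SI.

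Thy1 had different partners in the libraries. With Ly6a its ratio was 1.41 (1.26 to 1.58) in LI and 0.638 (0.514 to 0.784) in SI, and with Cd34 it was 1.08 (0.93 to 1.26) and 0.495 (0.384 to 0.626). Of Thy1-positive cells, 26.2% in LI and 2.85% in SI were Cxcl9/H2-Ab1 cells, while 18.2% in LI and 39.9% in SI were pericyte-like. Among fibroblast-lineage cells the ratio of Thy1 with Cd34 was 1.13 in LI and 0.913 in SI, with intervals that both hold 1, and that of Thy1 with Ly6a was 1.51 (1.33 to 1.69) in LI and 1.03 (0.804 to 1.30) in SI.

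Combinations resembling sort gates were followed through the classes, with the limit that a missing UMI is not a missing protein. Cells with both Cd34 and Cd81 were 12.8% of thinned LI and 14.5% of thinned SI cells, and 35.9% and 33.3% of them were Myoc/Itm2a and 22.4% and 26.0% Fmo2/Lsamp cells. Cells with Cd34 and no Cd81 UMI were 14.2% and 18.2%, and their largest class was Fgfr2 FB-like, with 42.8% and 34.2%. Cells with neither were 43.9% and 48.5%, and held 75.3% of LI and 89.4% of SI pericyte-like cells. Cells with both Ly6a and Pi16 were 7.5% in LI, 41.7% of them Myoc/Itm2a, and 4.64% in SI, 68.1% of them Myoc/Itm2a.

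Cells positive for each surface gene were next compared with cells negative for it, over 57 marker genes of stromal subsets and of interferon and antigen presentation, of which 49 to 51 were high enough to test. A gene counts as called where its pooled CPM differed by 2-fold or more in both libraries. Pi16 separated the most, with 6 genes higher and 15 lower, beside 1.12% and 1.77% of all genes. The higher ones were Scara5 (log2 2.06 in LI and 2.80 in SI), Rspo1 (1.39 and 2.36), Ackr3, Anxa3, Dpp4 and C3, among them 4 of the adventitial list. The lower ones were led by Adamdec1 (-3.75 and -3.99), a metalloprotease gene of Fgfr2 FB, and held the smooth muscle gene Myh11 (-2.51 and -2.66) and the pericyte gene Rgs5 (-2.64 and -2.98). Among fibroblast-lineage cells alone, 5 were higher, without C3, and 10 lower, beside 0.985% and 1.2% of genes.

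Cd81-positive cells had 2 genes higher and 7 lower, beside 0.385% and 0.619% of all genes. Rspo1, an activator of Wnt signalling (1.198 and 1.518), and Ackr4, a chemokine scavenger (1.41 and 1.70), were higher. Lower were the Fgfr2 FB genes Adamdec1 (-3.18 and -3.60) and Fgfr2 and the PDGFRAhi FB genes Bmp3, Bmp5, Bmp7, Nrg1 and Sox6. Grem1, Rspo3, Fgf7 and C3, the rest of the CD81 FB list, were not 2-fold higher in both libraries. With the fibroblast lineage alone, Rspo1 and Ackr4 were higher and 10 genes lower, beside 0.404% and 0.855% of genes.

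Cd34-positive cells had 1 gene higher, Scara5 (1.11 and 2.05), and 13 lower, beside 0.0822% and 0.658% of all genes. All 13 were mural, 9 from the SMC list, such as Myh11 (-2.12 and -3.07), and 4 from the pericyte list, such as Notch3 (-1.86 and -2.99). Among fibroblast-lineage cells alone, 0 were higher, with Scara5 at 0.98 and 1.90, and 2 lower, Nrg1 and Tagln, beside 0.0597% and 0.0239% of genes. Thy1-positive cells had 4 genes higher, all of pericytes, and 1 lower, beside 0.256% and 0.233%. These were Rgs5 (1.64 and 1.32), Ndufa4l2 (1.63 and 2.19), Notch3, Higd1b and, lower, Adamdec1 (-2.27 and -2.99). Counted in LI alone, 0.553% of all genes were 2-fold higher and 0.531% lower in Thy1-positive cells, and in SI alone 1.67% and 1.72%. Within the fibroblast lineage 0 marker genes were 2-fold higher in Thy1-positive cells of both libraries and 3 lower, beside 0.154% and 0.13% of genes.

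Ly6a-positive cells had 8 genes higher and 7 lower, beside 0.445% and 0.41% of all genes. Of the 8, 6 belong to the interferon and antigen presentation list, Cxcl9 (3.27 and 2.30), Cd74 (2.06 and 2.43), H2-Ab1 (2.13 and 2.47), H2-Aa, H2-Eb1 and Gbp2. The others were C3 (2.38 and 2.13), the central complement component, and Scara5 (1.59 and 1.86). In the fibroblast lineage, these 8 were again higher and 0 genes lower, beside 0.501% and 0.0358% of genes.

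Thbd-positive cells had Sox6 (1.5 and 1.87), Bmp3 and Bmp7 of the PDGFRAhi FB list higher and 3 SMC genes lower, beside 0.106% and 0.0704% of genes. F3-positive cells had Bmp3 (1.32 and 1.37) and Sox6 higher together with the SMC genes Actg2 (1.2 and 1.52) and Cnn1, and the pericyte genes Rgs5 and Notch3 lower, beside 0.117% and 0.0587%. Itgb1-positive cells had 6 genes higher, all of the SMC list, such as Myh11 (1.71 and 1.44), and 0 lower, beside 0.106% and 0% of genes. Cd9-positive cells had 0 higher and 0 lower, beside 0.0235% and 0.0118%. Among fibroblast-lineage cells alone, Thbd kept its 3 higher genes with 0 lower (0.0952% and 0.0238% of genes), and F3 had Bmp3, Sox6, Acta2 and Tagln higher with 0 lower (0.155% and 0.0119%). Itgb1 had Acta2 alone higher and 0 lower (0.024% and 0%), and Cd9 had 0 in either direction (0.0239% and 0.0239%). Thbd and F3 thus shared Sox6 and Bmp3 in both sets of cells.

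**Figure D5:**
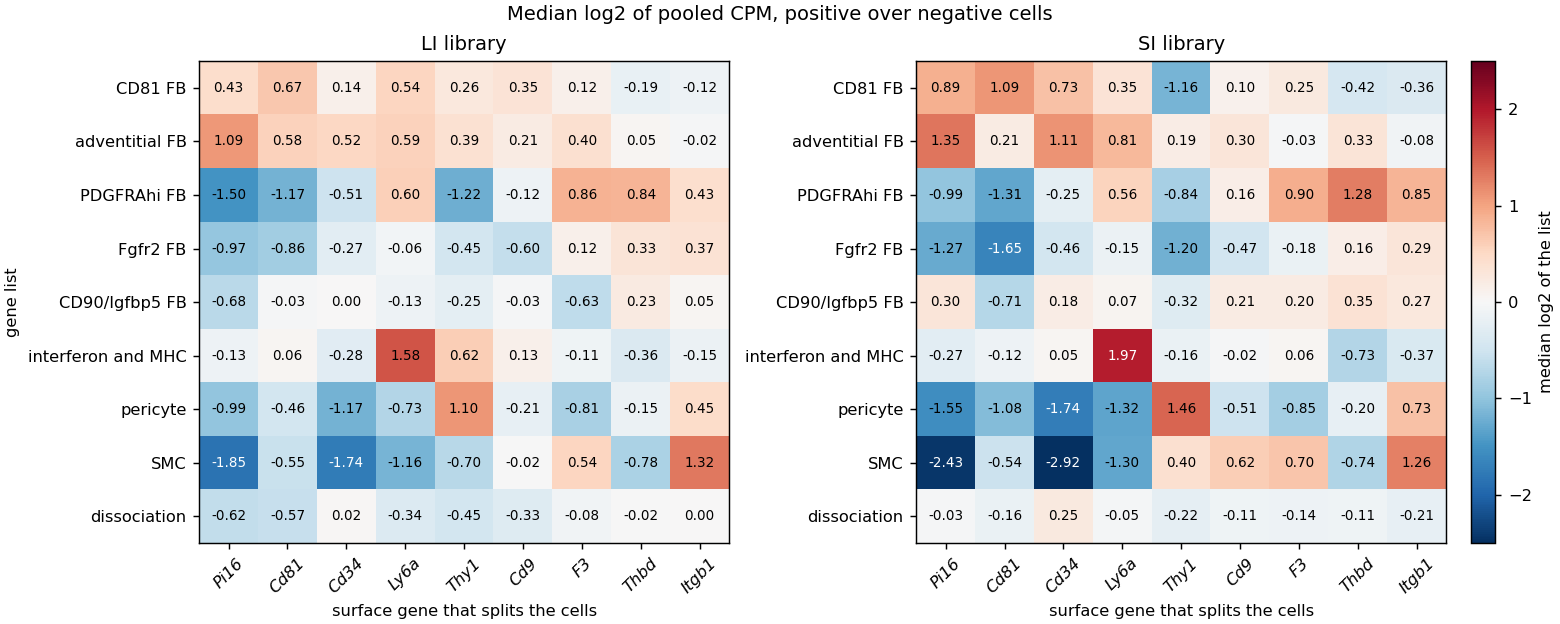
Median log2 ratio of pooled CPM in cells positive over cells negative for each surface gene, for 9 gene lists, in cells thinned to 2000 UMIs with a pseudocount of 10 CPM. Interferon and antigen presentation genes are highest with Ly6a, pericyte genes with Thy1, SMC genes with Itgb1, adventitial genes with Pi16 and PDGFRAhi FB genes with Thbd or F3.

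Over all genes with at least 50 CPM in positive cells of both libraries, ranked by the smaller of the 2 log2 ratios, Cd81 and Cd9 led to some of the same genes. For Cd81 the first 3 were Dlk1 (1.97 in LI and 2.31 in SI), Ptn (1.84 and 2.56) and Igfbp6 (1.63 and 2.51), and for Cd9 they were Igfbp6 (1.26 and 1.33), Dlk1 (1.14 and 0.84) and Lbp. For Pi16 they were Lbp (2.68 and 2.75), Sfrp4 (2.92 and 2.62) and Igfbp6 (2.34 and 3.70). For Cd34 they were Clec3b (1.42 and 1.75), Fmo2 and Ly6c1, and for Ly6a Ly6c1 (3.49 and 3.33), Cxcl9 and C3. Thy1 led to Cox4i2 (1.75 and 1.94), Ndufa4l2 and Esam, Thbd to Sox6, Gnai1 and Ogn, F3 to Fgf9 (1.28 and 1.38), Sox6 and Actg2, and Itgb1 to Acta2, Myh11 and Tagln.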

How the data were processed

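CellRanger, version 3.1.0 by the headers of the count tables, had aligned the reads of the 2 libraries to mm10, and the authors deposited raw counts, the number of UMIs per gene and barcode, which were used as deposited. The study's processing notes also name Seurat 3. The surface genes, gene lists and comparisons were chosen with earlier results of these data known.

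Doublets were kept. Scrublet (scanpy 1.11.5) called 0 by its own threshold, so the highest scores (0.8% per 1000 barcodes) were removed only as an alternative. Clusters came from Seurat 5.3.0 in R 4.3.3 (2000 variable genes, 30 components, 20 neighbours, resolution 0.8), and the thresholds for naming and matching them were set after clusters had been seen. Pooled CPM are UMIs of a gene over all UMIs, with exact Poisson intervals. Log2 ratios carry a pseudocount of 1 CPM between libraries, with binomial-split intervals that hold no pseudocount, and of 10 CPM between positive and negative cells. Shares carry Clopper-Pearson intervals. The minimum of 10 expected cells for a pair and of 50 positive cells for a split were set after seeing the data. Coordinates are from GENCODE vM21 (GRCm38). Named genes are the surface genes, fixed marker lists, genes of the gates, and for each surface gene the 3 genes ranked highest by the smaller log2 ratio. Scripts (Python 3.11.15, scipy 1.17.1, edgeR 4.0.16 for TMM scaling) were tested on simulated data. Results that need certain withheld items are not reported here.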

Additional observations from a re-analysis of the deposited data

Results flagged for a closer look

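In Thy1-positive over Thy1-negative cells, 3 marker genes moved by 2-fold or more in opposite directions in the libraries. C3 had a log2 ratio of 1.12 in LI and -1.16 in SI, Cd74 had 1.10 and -1.45, and H2-Ab1 had 1.32 and -1.53. Among fibroblast-lineage cells alone these opposite 2-fold calls were lost, with C3 at 1.23 and -0.40, Cd74 at 1.63 and -0.49 and H2-Ab1 at 1.75 and -0.66. With 1 library per region the difference was not tested.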

How the results depend on the processing

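With fibroblast-lineage cells only, 1 surface gene (Thy1) instead of 0 differed by 2-fold and 2 pairs instead of 4 were co-detected above expectation. Calling cells positive from 2 UMIs gave 1 pair below expectation, and thinning to 1000 UMIs gave 22 marker genes 2-fold higher instead of 34. With no minimum of expected cells, an alternative chosen after seeing the data, 6 pairs were below expectation. The other 35 comparisons of these counts stayed within 1.5 times, and the count of genes highest in the same class ranged from 4 to 6. Of 80 log2 ratios of single genes under the alternatives, 28 moved by more than counting error. With female cells only, the ratio of Thy1 over all cells turned from 0.31 to -0.28, that of Cd9 from 0.11 to -0.05 and that of Thbd from 0.04 to -0.02. With fibroblast-lineage cells only, Thbd turned to -0.05. No paired analysis was possible because each region has 1 library. Depth limits Bst1, Thy1 and Pi16 in classes where they are rare.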

Other observations

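Among other surface genes on the fixed list, Kit, Ackr4, Mcam and Esam differed by more than 2-fold between the libraries, beside 3.92% of all genes tested. Kit, the receptor that marks interstitial cells of Cajal, stood at 38.2 CPM in LI and 5.87 CPM in SI. Ackr4 stood at 17.4 and 63.0 CPM, and the mural genes Mcam and Esam at 21.7 and 58.4 CPM and at 20.7 and 48.0 CPM. Pdgfra (169 and 233 CPM), Pdpn (217 and 126 CPM) and Dpp4 (7.01 and 6.29 CPM) differed by less than 2-fold. Interstitial cells of Cajal-like cells were 2.93% of LI and 0.506% of SI cells, pericyte-like cells 6.25% and 10.3%, and Rcan2/Sorbs2 cells 0.841% and 6.46%. The part of these shares in the differences was not tested.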
